A study of Mus musculus with 3 samples.

Results

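Thrombospondins and other matricellular proteins are represented here by 10 genes, of 29267 genes in the expression tables. They are Thbs1, Thbs2 and Thbs3 (thrombospondins), Sparc, Tnc (tenascin C), Postn (periostin), Ccn1 and Ccn2 (older names Cyr61 and Ctgf), Fn1 (fibronectin) and Vcan (versican). The genes were listed by symbol and found through their Ensembl identifiers, and all 10 had counts in every library. They were chosen on values of these data: Thbs1 was picked for its fall in the library labelled ESC, and the others were added as members of the same protein groups. The differences between that library and the fibroblasts are therefore given as a description, with no test. RNA-seq had been performed once each on mouse embryonic fibroblasts (MEFs) of the OG2 strain, MEFs of the ICR strain, and embryonic stem cells (ESCs) of the R1 line. Both fibroblast cultures were at passages 3 to 5, and the ESCs were labelled naive and were at passage 30. OG2 mice carry a transgene in which Oct4 regulatory sequence drives GFP, and no treatment was given in the labels of any group. The ESC sample is 1 library of 1 line, and the only spread that was measured is that of the MEF pair, in which the strain differs too. MEFs are the starting cells and ESCs the reference end point of somatic cell reprogramming.

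Matricellular proteins are secreted into the extracellular matrix, where they regulate how cells attach, migrate and respond to growth factors more than they build the scaffold itself. They bind integrins, CD36, CD47, syndecans and other receptors at the cell surface, and several of them are classical targets of TGF-β signalling, of YAP and TAZ with TEAD factors, and of serum response factor. Fibroblasts are a major source of them in development and wound repair. Fibronectin and versican are larger matrix components that share many of these partners.

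The rounded expected counts came to 5149297 for OG2 MEFs and 4590599 for ICR MEFs, while the library labelled ESC was the shallowest at 1717798. After TMM scaling, a count of 3 equals 0.532, 0.580 and 2.15 counts per 1000000 counts (CPM) in the same order. The 9 fibroblast markers summed to 23868 and 23615 CPM in OG2 and ICR MEFs but to 3892 CPM in the library labelled ESC. Of them 8 were at least 1 log2 unit lower there and none was at 0. Of 10 markers of pluripotent cells, 5 were at 0 counts in that library, among them Zfp42 and Esrrb, while Pou5f1 had 71 counts and Nanog 51. The sum of the 10 was 12.2 and 18.6 CPM in OG2 and ICR MEFs, against 113 CPM in the library labelled ESC. Klf2 made up most of the MEF sums, at 11.2 and 17.6 CPM. It went the other way, with 63 and 91 counts in MEFs against 2 in the library labelled ESC. The 10 epithelial markers summed to 539 CPM there, against 30.2 and 32.5 CPM in MEFs, with 414 counts of Krt14 and with Krt5, Krt4 and Trp63 at 0. The sums of the other markers, in the order OG2 MEFs, ICR MEFs and the library labelled ESC, were 10.8, 12.0 and 0.717 CPM for 5 endoderm genes, of which Gata4, Sox17, Foxa2 and Afp were at 0 in the last. For 4 endothelial genes they were 11.5, 11.2 and 81.0 CPM, with Cdh5 and Kdr at 0 in the last. Different genes made up these sums: Kdr at 10.8 and 10.4 CPM in MEFs, and Pecam1, at 0 in MEFs, at 64.5 CPM in the last. For 4 macrophage genes the sums were 24.5, 11.0 and 14.3 CPM, with Ptprc and Adgre1 at 0 in the last. Since 5 of the 10 pluripotency markers had no count, the sample is called the library labelled ESC. The part of these marker levels in the differences described here was not tested. In bulk RNA, fewer cells that express a gene and less of its RNA per cell cannot be told apart.

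All 10 genes were lower in the library labelled ESC than in both MEF samples, and 9 of them were at least 1 log2 unit lower than both. The same distance was passed by 25.9% of the 17810 genes with a count in any library. None of the 10 genes was at least 1 log2 unit higher than both MEF samples, which 21.9% of those genes were. The median difference was -4.04 on the log2(CPM + 1) scale over the 10 genes. It was -0.13 over all genes with a count, and -0.43 over those with at least 10 counts in any library. Differences ran from -7.57 for Thbs1 to -0.79 for Thbs3, and 6 of the genes were among the 500 with the largest falls. Together the 10 genes took 2.34% of all counts in OG2 MEFs and 2.52% in ICR MEFs, against 0.155% in the library labelled ESC. The shares of all genes depend on the scale. With TPM, which divides by transcript length and was not scaled by TMM, 7692 genes were lower and 1624 higher. With CPM these numbers were 4617 and 3900. Each fold of the 10 genes is the mean CPM of both MEF samples over the CPM of the library labelled ESC, and a fold in TPM is the same ratio of TPM values. The 95% interval of a CPM fold is exact, comes from the pooled counts and covers counting error only, since without molecular identifiers PCR copies of 1 molecule are not separated.

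**Figure D1:**
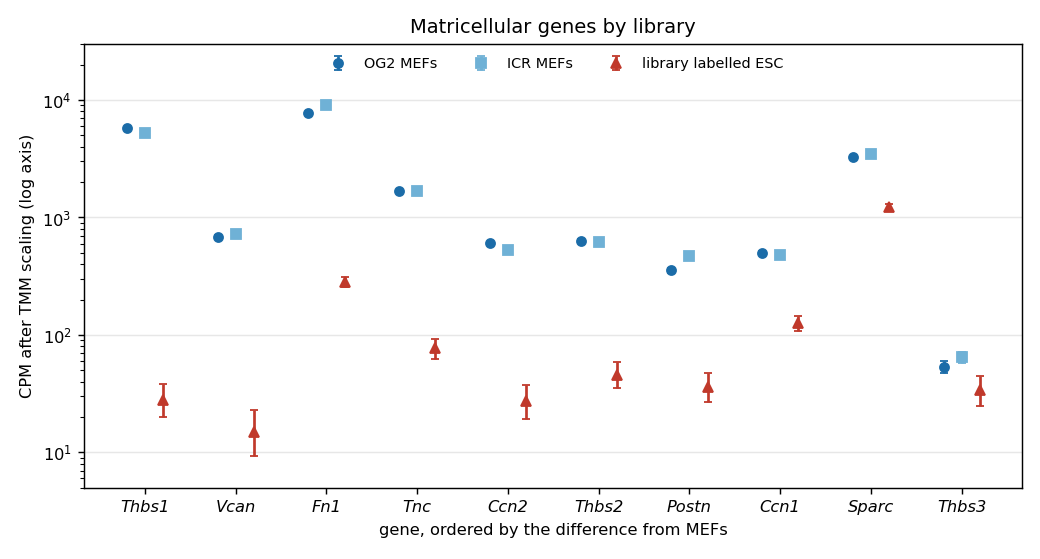
CPM after TMM scaling (log axis) of the 10 genes in OG2 MEFs (circles), ICR MEFs (squares) and the library labelled ESC (triangles), with exact 95% Poisson intervals of the counts that are often smaller than the symbols. The triangle lies below both MEF symbols for all 10 genes, farthest for Thbs1 and least for Thbs3.

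Thbs1 encodes a trimeric thrombospondin that activates latent TGF-β and restrains angiogenesis (chr2:118111876-118127133, plus strand, GRCm38). It had 32663 counts in OG2 MEFs and 26998 in ICR MEFs, against 39 in the library labelled ESC. After scaling these were 5798, 5224 and 28.0 CPM, and the MEF mean was 5511 ± 406 CPM (SD, n = 2). Both MEF values thus lay far above the third library, and the MEF samples differed little from each other. Its level was 197-fold lower (144 to 278), which put Thbs1 at rank 4 of 17810 genes counted from the largest fall. In TPM the fold was 582.

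Thbs2 encodes the closest relative of Thbs1, also a trimer and an inhibitor of angiogenesis (chr17:14665500-14694235, minus strand). Its CPM was 634 in OG2 MEFs and 623 in ICR MEFs, against 45.9 in the library labelled ESC, from 3572, 3222 and 64 counts. The MEF samples were nearly equal, and the level was 13.7-fold lower in the third library (10.7 to 17.8), or 40.4-fold in TPM. Thbs3 encodes a thrombospondin of the other, pentameric subgroup, which lacks the domains through which Thbs1 restrains vessel growth (chr3:89215180-89226837, plus strand). Its CPM was 53.6 in OG2 MEFs and 64.6 in ICR MEFs, against 33.7 in the library labelled ESC, from 302, 334 and 47 counts. The fold was 1.75 (1.30 to 2.40), the smallest of the 10, and its log2 difference of -0.79 did not reach 1 unit. With a correction for GC content that difference was -1.30 and passed 1 unit, and on the TPM scale it was -0.33. The whole of Thbs3 lies within the span of Mtx1 on the opposite strand, which had 201, 177 and 419 counts in the same order of libraries. The labels and the paper name different TruSeq kits, neither by a name that marks strand, and a strand setting for the counting is not given in the sources used here, so reads of overlapping genes may not have been told apart. Of Thbs1, Thbs2 and Thbs3, Thbs1 thus had the highest MEF level, in CPM and in TPM, and the largest difference. Thbs3 had the lowest level and the smallest difference. This order did not extend to the related genes Thbs4 and Comp. Their levels in OG2 and ICR MEFs were lower, at 1.95 and 5.42 CPM for Thbs4 and 0.710 and 1.74 CPM for Comp. Their log2 differences were -2.12 and -1.11, from at most 28 counts.

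Sparc encodes a collagen-binding glycoprotein of bone and connective tissue, also called osteonectin (chr11:55394500-55423183, minus strand). It had 18423 counts in OG2 MEFs and 17857 in ICR MEFs, against 1720 in the library labelled ESC, which corresponds to 3270, 3455 and 1233 CPM. Its fold was 2.73 (2.59 to 2.86), or 7.87 in TPM, the second smallest of the 10 on both scales. Sparc made up 64.7% of all counts of the 10 genes in the library labelled ESC. Its summed share with Thbs1 and Fn1 was close to even across libraries, at 78.9%, 79.6% and 81.1%, while Thbs1 and Fn1 alone took 63.6% and 64.1% in the MEF samples and 16.4% in the library labelled ESC. In that library Fn1 contributed 14.9% and Thbs1 1.47%, so most of the share was that of Sparc.

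Tnc encodes a hexameric tenascin of embryonic mesenchyme and healing wounds (chr4:63959785-64047015, minus strand). It stood at 1681 CPM in OG2 MEFs and 1673 in ICR MEFs, against 76.7 in the library labelled ESC, from 9471, 8645 and 107 counts. The MEF values were nearly equal, and the fold was 21.9 (18.1 to 26.7), or 58.5 in TPM. Postn encodes a fasciclin-domain protein of periosteum, heart valves and fibrotic tissue (chr3:54361109-54391037, plus strand). Its CPM was 355 in OG2 MEFs and 471 in ICR MEFs, against 35.9 in the library labelled ESC, from 2000, 2436 and 50 counts. Both MEF samples were above the third library, and the fold was 11.5 (8.67 to 15.5), or 39.0 in TPM.

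Ccn1 and Ccn2 encode cysteine-rich secreted proteins that bind integrins and heparan sulphate and are immediate targets of YAP and TAZ. Ccn1 (chr3:145646976-145649981, minus strand) had 500 CPM in OG2 MEFs and 483 in ICR MEFs, against 125 in the library labelled ESC, from 2819, 2494 and 175 counts. Ccn2 (chr10:24595442-24598683, plus strand) had 604, 530 and 27.3 CPM in the same order, from 3401, 2741 and 38 counts. The pair was close in MEFs and apart in the third library, with a fold of 3.92 for Ccn1 (3.37 to 4.58) and of 20.8 for Ccn2 (15.2 to 29.5). These intervals do not overlap, and in TPM the folds were 11.7 and 63.0. Per length, the ratio of Ccn1 to Ccn2 in TPM was 0.991 in OG2 MEFs and 1.09 in ICR MEFs, against 5.61 in the library labelled ESC.

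Fn1 encodes fibronectin, the adhesive glycoprotein that integrins assemble into fibrils (chr1:71585520-71653200, minus strand). It had the most counts of the 10 genes in both MEF samples, 43873 and 47009, and 396 in the library labelled ESC. In CPM these were 7787, 9095 and 284, a fold of 29.7 (26.8 to 32.8), or 43.9 in TPM. Vcan encodes a large chondroitin sulphate proteoglycan that binds hyaluronan (chr13:89655312-89742509, minus strand). It had 681 CPM in OG2 MEFs and 721 in ICR MEFs, against 15.1 in the library labelled ESC, from 3839, 3729 and 21 counts. Its fold was 46.6 (30.4 to 75.2), but 16.4 in TPM. Its place among the 10 depended on the scale, since Fn1 differed more than Vcan with full-quantile normalization (-5.71 against -5.33 log2 units) and with GC-content correction (-5.40 against -5.05). Vcan had the fewest counts of the 10 genes in the third library. Gm4117, an antisense gene whose span overlaps the start of Vcan, had 44.7 expected counts in OG2 MEFs and 50.7 in ICR MEFs, against 465 in the library labelled ESC. Reads of the stretch that both span are uncertain for the same reason. The other annotated genes that overlap any of the 10 and are in the tables had at most 6.12 expected counts.

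The comparison of MEF strains was not used to choose the genes, and each strain had 1 library, so it has no test. None of the 10 genes was at least 1 log2 unit apart between OG2 and ICR MEFs, which 2.76% of all genes with a count were. In OG2 MEFs 5 genes were higher and 5 lower, and the median size of the difference was 0.12 on the log2 scale, against 0.19 over genes with at least 10 counts in any library. In CPM Postn differed most, with a level in OG2 MEFs 0.753 times that in ICR MEFs (0.710 to 0.799). Thbs1 differed more with full-quantile normalization (-0.58 against -0.45 log2 units for Postn), and with GC-content correction Thbs3 (-0.27) and Fn1 (-0.23) differed more than Postn (-0.17). Thbs3 at 0.830 (0.708 to 0.972) and Fn1 at 0.856 (0.845 to 0.867) were lower in OG2 MEFs too. The difference of Fn1 became 0 with full-quantile normalization. Sparc at 0.946 and Vcan at 0.944 were lower by less. Ccn2 at 1.14 (1.08 to 1.20) and Thbs1 at 1.11 (1.09 to 1.13) were higher in OG2 MEFs, although the direction of Thbs1 turned with full-quantile normalization. The ratios of Tnc at 1.01 (0.976 to 1.03), Thbs2 at 1.02 (0.969 to 1.07) and Ccn1 at 1.04 (0.982 to 1.09) were within counting error of 1. The other 7 intervals excluded 1, but they leave out the spread between cultures of 1 strain, which was not measured. Relative to these differences, the gap to the library labelled ESC was larger for all 10 genes in CPM. For Thbs3 the 2 differences were close on the log2(TPM + 1) scale, at -0.33 from the MEF mean and -0.31 between the strains.

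**Figure D2:**
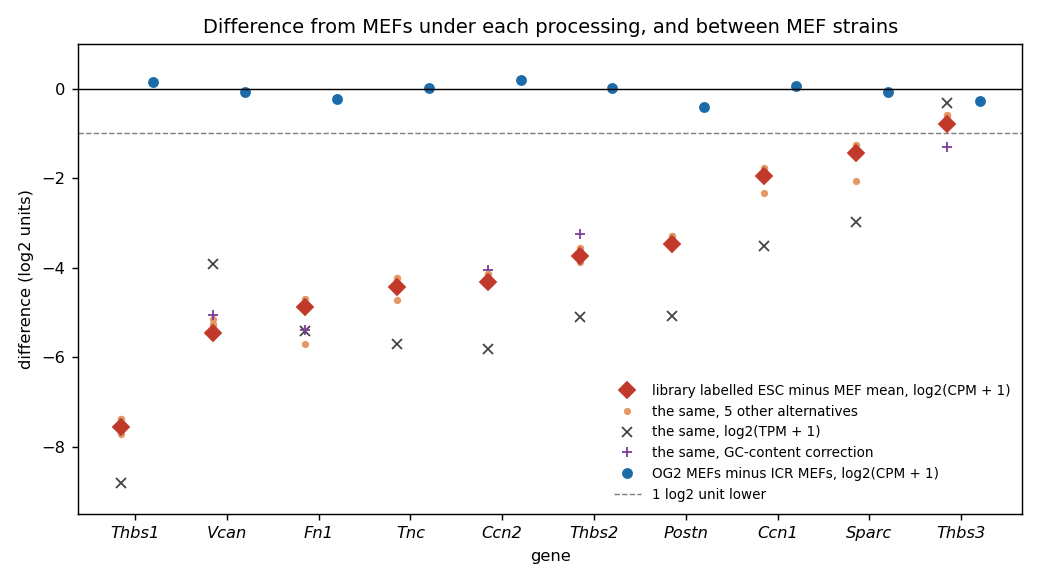
Difference of the library labelled ESC from the MEF mean on the log2(CPM + 1) scale (diamonds), the same under 7 other ways of processing (small points, crosses and plus signs), and the difference of OG2 from ICR MEFs (circles), in log2 units. The circles lie near 0, while diamonds lie between -7.57 and -0.79, and the processing moved Thbs3 across the dashed line at 1 unit lower.

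Levels of different genes were compared in TPM. In OG2 MEFs the order was Sparc at 3275 TPM, Fn1 at 2339, Thbs1 at 2052, Ccn2 at 546, Ccn1 at 542, Tnc at 491, Postn at 248, Thbs2 at 221, Vcan at 163 and Thbs3 at 46.3. ICR MEFs had Sparc at 3691, Fn1 at 2909, Thbs1 at 1990, Ccn1 at 558, Tnc at 523, Ccn2 at 511, Postn at 410, Thbs2 at 233, Vcan at 186 and Thbs3 at 57.7. The MEF orders thus differed only in the places of Ccn1, Ccn2 and Tnc. Of the 9 neighbours in each order, only Ccn2 and Ccn1 in OG2 MEFs and only Tnc and Ccn2 in ICR MEFs had overlapping counting intervals. Sparc, Fn1 and Thbs1 ranked 32, 48 and 56 among all genes in OG2 MEFs and 24, 36 and 54 in ICR MEFs.

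In the library labelled ESC, Sparc was again first at 443 TPM, followed by Fn1 at 59.8, Ccn1 at 47.2, Thbs3 at 41.0, Vcan at 10.6, Tnc at 8.66, Postn at 8.44, Ccn2 at 8.40, Thbs2 at 5.62 and Thbs1 at 3.47. Thbs1 thus held the last place instead of place 3, and Thbs3 place 4 instead of the last. Counting intervals overlapped for 7 of the 9 neighbours, and lay apart only between Sparc and Fn1 and between Thbs3 and Vcan. Against all genes, Sparc ranked 287 and Thbs1 7587. The ratio of Thbs1 to Thbs2 was 9.28 in OG2 MEFs and 8.53 in ICR MEFs, against 0.617 in the library labelled ESC, and that of Thbs1 to Thbs3 was 44.4, 34.5 and 0.0847. Counts per kilobase of the weighted transcript length gave the same order in every library. That is no separate check, since TPM is built from the same counts and the same length estimates.

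The tables also hold, for each gene, a mean transcript length weighted by the estimated abundance of its isoforms. Of the 10 genes, 8 have more than 1 annotated transcript and at least 10 counts in every library. In 2 of these 8, Vcan and Thbs3, the weighted length was at least 1 log2 unit shorter in the library labelled ESC than in both MEF samples, as it was for 7.09% of the 6246 genes of that kind. Vcan had 8571 bases in OG2 MEFs and 8506 in ICR MEFs, against 1146 in the library labelled ESC. Its annotated transcripts run from 294 to 12427 bases. Thbs3 had 2499, 2579 and 726 bases in the same order. Their counts in the third library were low, 21 for Vcan and 47 for Thbs3, and both overlap a gene on the opposite strand. Thbs1 and Ccn2 had 39 and 38 counts there, overlapping genes with at most 1.51 expected counts, and no shorter length. Fn1 and Tnc had 396 and 107 counts there, and their overlapping genes had 0. Their log2 length differences were -0.97 and -0.14. For Sparc and Postn the differences were -0.04 and 0.15. The part of depth and overlap in the lengths was not tested. Because TPM divides by this length, it places Vcan and Thbs3 higher in that library than CPM does.

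Fn1, whose transcripts differ by alternative inclusion of fibronectin repeats, went from 6847 and 6903 bases in OG2 and ICR MEFs down to 3507 in the library labelled ESC, just short of 1 log2 unit, with 396 counts behind the last value. The weighted length of Thbs1 was 5836, 5821 and 5848 bases, and that of Sparc 2178, 2182 and 2116 bases, close to each other in all libraries. Tnc had 7034 and 7057 bases in OG2 and ICR MEFs but 6415 in the library labelled ESC, below its MEF values by more than they differed. Its annotated transcripts have 2928, 6833, 7100 and 7106 bases. Postn, a gene with several splice variants, had 3047 bases in OG2 MEFs and 2641 in ICR MEFs, against 3150 in the library labelled ESC, so that the MEF strains differed from each other by most of its range. Ccn2 had 2390, 2400 and 2470 bases. Thbs2 and Ccn1 have 1 annotated transcript each. RSEM estimates isoforms from the same reads as the counts, and the lengths carry no interval.

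**Figure D3:**
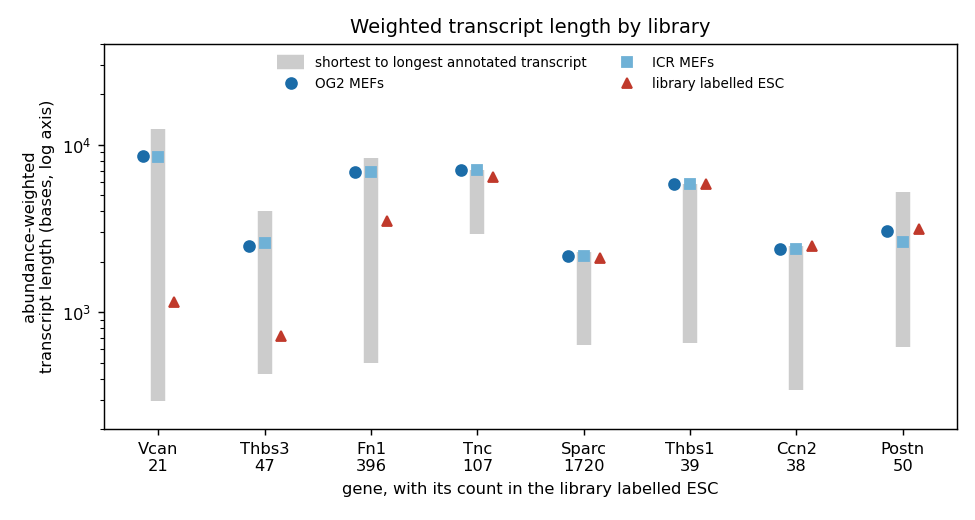
Abundance-weighted transcript length in bases (log axis) of the 8 genes with more than 1 annotated transcript, in OG2 MEFs (circles), ICR MEFs (squares) and the library labelled ESC (triangles), with that library's count under each gene and grey bars from the shortest to the longest annotated transcript. Vcan and Thbs3 fall from 8571 and 2499 bases in OG2 MEFs to 1146 and 726, Fn1 reaches 3507, Tnc moves from 7034 to 6415, and the triangles of the other 4 genes lie at or near a MEF symbol.

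Promoter sequences from RefSeq (GRCm38.p6), each with 250 bases before and 50 after an annotated transcription start, matched 7 of the 10 genes in 9 windows. Thbs1, Ccn2 and Fn1 were not matched. Windows were searched on both strands for the TEAD core GGAATG, the SMAD element CAGACA, the AP-1 site TGANTCA, the TATA box TATAAA, the GC box GGGCGG and the CArG box bound by serum response factor. For 5 genes the 250 bases before the start are printed 5′ to 3′ on the gene's strand, with every match in capitals. A match on the other strand appears as its reverse complement. Ccn1 is shown as the one window with a TEAD core, Thbs2 and Sparc for their SMAD elements, Postn for a TATA box close to the start, and Thbs3 as the gene that differed least.
Ccn1, chr3:145649986-145650235, minus strand: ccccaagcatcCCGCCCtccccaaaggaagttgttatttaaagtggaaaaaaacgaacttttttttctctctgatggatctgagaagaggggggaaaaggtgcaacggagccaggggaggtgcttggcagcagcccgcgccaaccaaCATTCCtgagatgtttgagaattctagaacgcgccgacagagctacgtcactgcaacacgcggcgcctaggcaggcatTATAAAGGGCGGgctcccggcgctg
Thbs2, chr17:14694263-14694512, minus strand: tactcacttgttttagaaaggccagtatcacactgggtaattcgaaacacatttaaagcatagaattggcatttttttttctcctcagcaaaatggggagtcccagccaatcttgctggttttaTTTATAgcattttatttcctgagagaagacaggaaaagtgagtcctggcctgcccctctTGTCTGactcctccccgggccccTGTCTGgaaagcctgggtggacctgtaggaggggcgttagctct
Thbs3, chr3:89214930-89215179, plus strand: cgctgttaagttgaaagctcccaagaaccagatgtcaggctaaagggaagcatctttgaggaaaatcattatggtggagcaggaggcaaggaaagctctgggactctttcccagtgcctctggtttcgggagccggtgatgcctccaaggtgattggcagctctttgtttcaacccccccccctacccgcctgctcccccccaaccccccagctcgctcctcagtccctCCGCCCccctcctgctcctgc
Sparc, chr11:55420081-55420330, minus strand: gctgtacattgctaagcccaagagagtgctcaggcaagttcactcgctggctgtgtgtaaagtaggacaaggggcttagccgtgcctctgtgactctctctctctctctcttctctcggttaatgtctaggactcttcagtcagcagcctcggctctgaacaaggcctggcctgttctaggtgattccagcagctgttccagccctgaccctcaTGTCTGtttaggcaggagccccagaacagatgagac
Postn, chr3:54360857-54361106, plus strand: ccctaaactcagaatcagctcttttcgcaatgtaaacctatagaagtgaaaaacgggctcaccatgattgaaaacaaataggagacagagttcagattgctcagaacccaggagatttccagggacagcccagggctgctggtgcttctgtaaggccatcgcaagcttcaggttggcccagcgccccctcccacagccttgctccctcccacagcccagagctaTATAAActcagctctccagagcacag
The TEAD core of Ccn1 lies on the strand opposite to the printed one at bases -103 to -98 from the start, and its TATA box at -25 to -20 directly precedes a GC box. Thbs2 has SMAD elements on the opposite strand at -67 to -62 and -44 to -39, and Sparc has one at -36 to -31 and another downstream of its start, outside the printed stretch. The TATA box of Postn lies at -26 to -21, and the only match in Thbs3 is a GC box at -21 to -16. The share of all 32851 RefSeq windows that hold a TEAD core was 14.7%, against 1 of the 9 windows here. A SMAD element stood in 6913 of those 32851 windows and in 4 of the 9 (Sparc, Thbs2 and both overlapping windows of Tnc). A TATA box stood in 13.6% of all windows and in 5 of the 9, and a GC box in 35.7% and in 5. Both counts of 5 include the same match of Tnc in each of its overlapping windows. The TATA boxes of Thbs2 (-126 to -121, opposite strand) and Tnc (-126 to -121 and -205 to -200) lie farther upstream than those of Ccn1 and Postn. The CArG box was in 1.63% and the AP-1 site in 7.81% of all windows, and neither was in any of the 9. A match is a stretch of letters and not a measured binding site.

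Partners of these proteins were examined as 5 lists with 78 genes in all, of which 76 had a count. Of these, 43 were at least 1 log2 unit lower than both MEF samples in the library labelled ESC and 3 were higher, and the median difference was -1.47 on the log2(CPM + 1) scale. The same distance was passed by 25.9% of all genes with a count in the lower and by 21.9% in the higher direction, shares against which the counts of each list below can be read. The 3 higher genes, given here because they are so few, were Ncan, Bcan and the protease gene Adamts20, with 15, 13 and 6 counts. By the quasi-likelihood test of edgeR, adjusted over all tested genes by the Benjamini-Hochberg method, 45 of the 66 partner genes tested were called lower and 7 higher at an adjusted p under 0.05. Over all 12663 genes tested, 36.0% were called lower and 31.4% higher. The ESC side had 1 library, and the test took its spread from the MEF pair alone with 1 residual degree of freedom. The lists were also chosen with results of these data known, so the calls describe these libraries and no p-value is given for a partner gene. The 43 lower genes were below the MEF mean under all 7 other ways of processing. The 7 called higher were Ncan, Bcan, Cd47, Itgb3, Calr, Tead4 and Mrtfb, while DESeq2 called 3 partner genes higher and edgeR without the filter on low counts called 3. On the log2(TPM + 1) scale, which moved the median of all genes with at least 10 counts by -1.11, only Ncan of these 7 remained above MEFs (0.92).

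**Figure D4:**
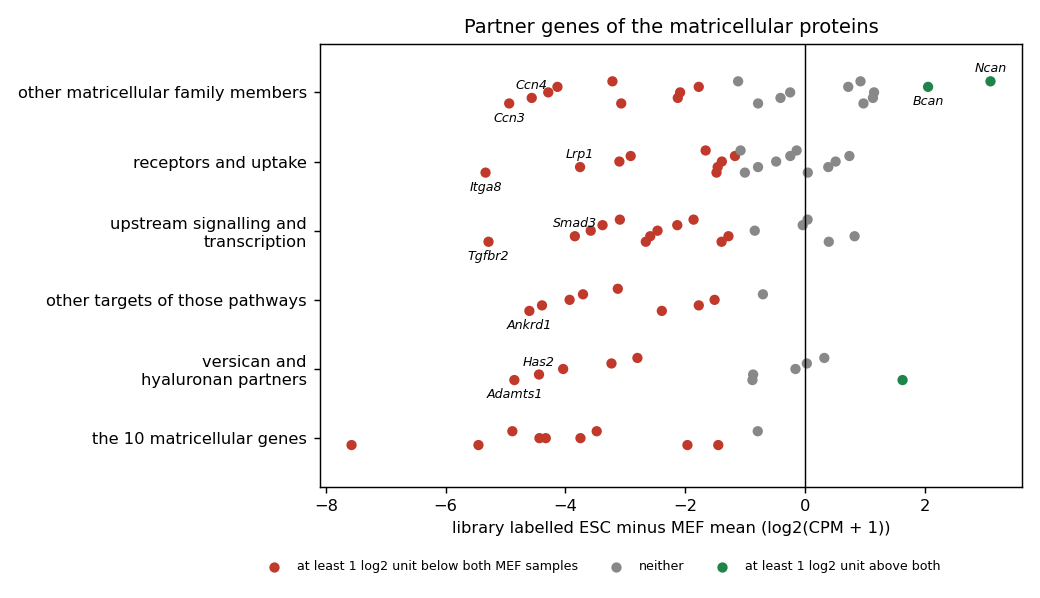
Difference of the library labelled ESC from the MEF mean, on the log2(CPM + 1) scale, for the partner genes in 5 lists and for the 10 matricellular genes, with 1 point for each gene. Red points are at least 1 log2 unit below both MEF samples (43 partner genes), green points at least 1 above both (3) and grey points neither, and the labels mark the genes described with their counts in the text.

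Folds of the partner genes are from pooled counts of both MEF samples, with exact 95% counting intervals. Among 21 other members of the same protein families, 20 had a count, 9 were at least 1 log2 unit lower, 2 were higher and the median difference was -0.95. The test called 8 of 15 lower and 2 higher. Ccn3, a CCN protein with growth-restraining roles, had 274 counts in OG2 MEFs and 283 in ICR MEFs, against 1 in the library labelled ESC, 71.9-fold lower with a counting interval from 12.9 to 2845. Ccn4, a WNT-induced CCN protein, had 1311, 1698 and 15 counts in the same order, 25.9-fold lower (15.7 to 46.3). Ccn3, Ccn4 and Ccn5 were thus lower together with Ccn1 and Ccn2, and Ccn6 had no count. In the opposite direction were neurocan (Ncan) and brevican (Bcan), proteoglycans of brain matrix related to versican. Ncan had 2 counts in each MEF sample and 15 in the library labelled ESC, and Bcan had 7, 9 and 13. The thrombospondins Thbs4 and Comp were low in all libraries, with at most 28 counts.

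Of 19 receptors and uptake proteins, 9 were at least 1 log2 unit lower, none was higher and the median difference was -1.07, while the test called 10 lower and 3 higher. Itga8, the α subunit of an integrin for tenascin and fibronectin, had 176 and 255 counts in OG2 and ICR MEFs but 0 in the library labelled ESC, which makes it at least 18.7-fold lower when 3 counts are taken as the floor. Lrp1, which takes up thrombospondin from the cell surface, had 8586, 8359 and 161 counts, 13.6-fold lower (11.6 to 16.0). Itgb1, the shared β subunit of many matrix integrins, differed by -3.10 on the log2(CPM + 1) scale. The list was mixed, since the αv chain Itgav (-0.48), its partner Itgb5 (0.05) and the thrombospondin receptor Cd47 (0.74) were within 1 log2 unit of the MEF mean, while on the TPM scale the values were 1.78, -1.50 and -1.60. Of these only Cd47 was called, as higher.

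Among 17 upstream genes, 12 were at least 1 log2 unit lower, none was higher and the median difference was -2.13. The test called 13 lower and 2 higher. Tgfbr2, the type II receptor of TGF-β, had 1567 counts in OG2 MEFs and 1268 in ICR MEFs, against 8 in the library labelled ESC, 45.7-fold lower (23.2 to 106). Smad3, which carries that signal to the nucleus, had 451, 363 and 6 counts, 17.5-fold lower (8.01 to 47.9). Yap1 (-2.46), Wwtr1 (-1.86, the gene for TAZ) and Tead1 (-2.58) were also lower on the log2 scale. Serum response factor (Srf, 0.05) and its cofactors Mrtfa (-0.04) and Mrtfb (0.40) were within 1 log2 unit of the MEF mean, and all 3 were below it on the TPM scale (-1.45, -1.54 and -1.01).

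Of 9 other targets of these pathways, 8 were at least 1 log2 unit lower, the median difference was -3.12, and the test called all 9 lower. Ankrd1, a cardiac ankyrin-repeat protein and YAP target, had 293 counts in OG2 MEFs and 164 in ICR MEFs, against 1 in the library labelled ESC, 59.0-fold lower with a counting interval from 10.5 to 2335. Axl was the exception to the 1-unit distance (-0.70). Of 12 versican and hyaluronan partners, 11 had a count, 5 were at least 1 log2 unit lower and 1 higher, and the median difference was -0.88. The test called 5 of 6 lower and none higher. Adamts1, a protease that cleaves versican, had 1026, 1301 and 9 counts, 33.4-fold lower (17.6 to 73.1). Has2, the main hyaluronan synthase of mesenchyme, had 103 and 121 counts in the MEF samples and 0 in the third library, at least 9.69-fold lower at the same floor.

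The genes whose log2(CPM + 1) values were nearest to those of Thbs1, by Euclidean distance over the 3 libraries, were H19 at 1.29, Lox at 1.67 and Col5a2 at 1.71 log2 units. H19, an imprinted noncoding RNA of fetal tissue, had 39567, 26529 and 95 counts in OG2 MEFs, ICR MEFs and the library labelled ESC. Lox, the enzyme that cross-links collagen, had 13528, 13752 and 55 counts in that order, and the fibrillar collagen gene Col5a2 had 13888, 16796 and 78. With 3 libraries this likeness describes a shared level more than a shared pattern.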

How the data were processed

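RNA was extracted with Trizol and sequenced as TruSeq libraries, by the labels on a MiSeq and by the paper on a NextSeq 500. The authors aligned reads with Bowtie to mm10 transcripts, and the paper names Ensembl release 67, although the release behind the tables is unsure. The deposited expected counts are RSEM's estimates of reads per gene, and were treated as not yet corrected for GC content, a step the paper describes. The deposited TPM is scaled by the authors' RSEM run to transcript length and a fixed sum. The weighted transcript length is also as deposited. FPKM was not used. Of 29267 identifiers, 98.3% matched GENCODE M21.

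Expected counts were rounded, scaled by TMM in edgeR 4.0.16 (R 4.3.3) and given as log2(CPM + 1), a scale that understates the change of low genes. Partner genes were tested with edgeR's quasi-likelihood fit after its filter on low counts, with DESeq2 1.42.0 as an alternative. The edgeR test was also run on simulated counts. Intervals at 95% are exact (Poisson, or conditional binomial for ratios). MEF samples were grouped by cell type in the labels, and nothing in the labels gives separate cultures or animals beyond the strain. The 10 genes and all lists were chosen with earlier results of these data known. Genes named from each partner list were the 2 farthest below and the 2 farthest above the MEF mean among those that differ from each MEF sample by at least 1 log2 unit and have at least 10 counts in any library. Others named there were chosen after their values were seen. Of the genes this rule gives, 1 is not reported here. Alternatives were TPM, DESeq2's median-of-ratios factors, limma's (3.58.1) full-quantile normalization, GC-content correction over 20 bins, a minimum of 10 counts in any library, a pseudocount of 0.1 or of 5, and each MEF sample left out. Python 3.11.15, numpy 2.4.6, pandas 2.3.3, scipy 1.17.1 and matplotlib 3.10.9 were used.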

Additional observations from a re-analysis of the deposited data

How the results depend on the processing

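The count of 9 matricellular genes at least 1 log2 unit lower held under 8 of 9 alternatives and became 10 with GC-content correction. Over 7 alternatives with both MEF samples the 70 values against MEFs stayed below 0 (-8.82 to -0.33), with 51 of them moving by more than the MEF pair's SD, and Thbs1 ran from -8.82 to -7.38. Scaling moved the median of genes with at least 10 counts by 0.13 (pseudocount of 5), 0.17 (median-of-ratios and minimum count), 0.20 (full-quantile) and -1.11 (TPM). The OG2 and ICR difference changed sign or became 0 in 11 of 70 values.

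The count of 3 higher partner genes became 5 with a pseudocount of 0.1, 6 with median-of-ratios factors and 7 with full-quantile normalization. It was 1 with TPM and 5 with GC-content correction. With either MEF sample left out it was 3 to 9, 9 being the count without ICR MEFs. The 1 gene with TPM was Itgav (1.78), and none of the 3 in CPM passed the distance there (Ncan 0.92, Bcan -0.10, Adamts20 0.24). Partner genes called higher by the test fell from 7 to 3 with DESeq2 and to 3 without the filter on low counts. Over all genes, 492 apart between the MEF strains became 1107 with TPM, and 3608 or 103 when the pseudocount was 0.1 or 5. TPM, which was not scaled by TMM, gave 7692 genes lower and 1624 higher, against 4617 and 3900. The folds of Thbs2 and Ccn1, with 1 annotated transcript each, also rose with TPM, from 13.7 to 40.4 and from 3.92 to 11.7. The cause was not tested. The split of genes past the 1-unit distance into higher and lower thus depends on the scaling. The number of partner genes called higher changed with the test used and with the filter on low counts. The test was not run with a MEF sample left out, since no residual degrees of freedom remain. No paired analysis was possible because there was 1 ESC sample, of the R1 line, against MEF samples of the OG2 and ICR strains. The depth of the library labelled ESC limits folds of genes with few counts there, and the spread of ESC cultures was not measured.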
